A study of Mus musculus with 12 samples.

Results

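The BCL2 family of apoptosis regulators was followed in the RNA of mouse macrophages with and without the microRNA miR-210, at rest and after IL-4. The 10 genes described are Bcl2, Bcl2l1, Mcl1, Bcl2a1b, Bax, Bak1, Bcl2l11, Bid, Bbc3 and Pmaip1, chosen by name as family members and matched by Ensembl identifier among the 56941 genes of the count tables. All 10 were found, and all 10 passed the filter on low counts in every comparison. Members of the family meet at the outer mitochondrial membrane. The pro-survival proteins (Bcl2, Bcl2l1, which encodes Bcl-xL, Mcl1 and the Bcl2a1 or A1 proteins) hold the effectors Bax and Bak1 in check, and the BH3-only proteins (Bcl2l11 or Bim, Bid, Bbc3 or Puma, Pmaip1 or Noxa) bind the pro-survival proteins or the effectors and so free the effectors to form pores through which cytochrome c leaves the mitochondrion. In myeloid cells Mcl1 and the A1 proteins are known as survival factors that lean on cytokine signals, and Bim is known as the main BH3-only protein that rises when such signals are withdrawn.

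The data are RNA-seq of total RNA. Monocytes were taken from the bone marrow of C57BL/6J mice by negative selection and cultured for 7 days in medium with 20% fetal bovine serum and 30% L929-conditioned medium, a source of M-CSF, which gives resting M0 macrophages. M2 macrophages then received 20 ng/mL IL-4 for 72 h, while control cultures stayed without IL-4. The miR-210 deletion came from crossing floxed miR-210 mice with Gata-1 Cre mice, and knockout (KO) and wild-type (WT) animals were bred from heterozygous parents. Each of the 4 groups (WT M0, KO M0, WT M2, KO M2) had 3 libraries, between 7930525 and 10167695 counts per library, and the age of the mice was not given in the sources used here. Nothing in the sources ties a library to an animal, so p-values measure the spread between these libraries, which may be technical. In GEO's labels every group has a different batch value, and the effects of batch and group cannot be told apart. Comparisons that use the same group share its 3 libraries.

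The labels were checked first. Counts of Mir210, the deleted microRNA gene, were 1, 3 and 5 for WT M0 and 1, 2 and 1 for WT M2, against 0 in all 6 KO libraries, where a count of 0 allows up to 3 per library. Only the WT M0 count of 5 is above that limit, so these counts cannot tell most single WT libraries from KO. The 7 macrophage markers (Adgre1, Cd68, Csf1r, Itgam, Mertk, Fcgr1, Lyz2) were present in all 12 libraries, with Lyz2 the most abundant, and summed to 8975, 9045 and 9188 CPM (normalized read count scaled to library size) in WT M0, 8658, 9243 and 9868 in KO M0, 7298, 7468 and 7521 in WT M2, and 7524, 7692 and 8024 in KO M2. Retnla, a marker of the IL-4 state, was at 0 in all 6 M0 libraries and between 270.6 and 479.9 CPM in M2.

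The mature miR-210 strands are printed here because they are what the KO cells lack. Capitals mark the seed, bases 2 to 8 from the 5′ end, and the sequences come from RefSeq (GRCm38.p6):
mmu-miR-210-3p: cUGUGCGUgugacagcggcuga
mmu-miR-210-5p: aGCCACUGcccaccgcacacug
The 7 bases that pair with the 3p seed, ACGCACA, were searched in the 3′ untranslated regions of the GENCODE transcripts. They occurred in 1 of the 10 members, Bcl2, against 1091 of 20954 protein-coding genes (5.21%). The match lies in the last exon of Bcl2 at chr1:106470190-106470196 (GRCm39, minus strand), shown with its neighbouring bases and the match in capitals:
Bcl2 site: atattttggatACGCACAccccctcctcc
The 7 bases for the 5p seed, CAGTGGC, occurred in Mcl1 and Bcl2l11, against 19.1% of the genes. A gene was counted if any of its protein-coding transcripts held the 7 bases. The Bcl2l11 match, at chr2:127971640-127971646 (plus strand), lies near the start of the gene (chr2:127967958-128004476). It need not be in the 3′ untranslated region of the other Bcl2l11 transcripts. A match is a run of letters and was not tested as a site.

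The members differed widely in level. Per kilobase of merged exon, the scale on which different genes were compared, Mcl1 stood at 501.9 ± 55.3 CPM per kb (SD, n = 3) in WT M0, 483.9 ± 45.9 in KO M0, 503.2 ± 8.40 in WT M2 and 497.8 ± 21.3 in KO M2. The next gene, Bcl2a1b, was at 80.4 ± 11.5 in WT M0, so that Mcl1 was 6.25-fold higher. Mcl1 made up 82.9% ± 2 of the summed level of the 4 pro-survival members in WT M0, 81.7% ± 0.648 in KO M0, 83.6% ± 0.777 in WT M2 and 82.4% ± 0.419 in KO M2. That sum leaves out pro-survival genes that are not among the 10, so it is not a share of all of them. Among those left out, Bcl2a1a was at 3.82 CPM per kb in WT M0 and 34.2 in WT M2, and Bcl2a1d at 11.9 and 22.0. In every group the order opened with Mcl1, Bcl2a1b, Bak1, Bax and Bcl2l11, and the ranges of neighbours among the first 5 did not overlap. Bcl2l11 overlapped the gene below it in all 4 groups (Bcl2l1 in M0, Bcl2 in M2). The lower places of the order were different with IL-4: Bcl2l1 was above Bcl2 in M0 and below both Bcl2 and Bbc3 in M2. The ranges of Bbc3 and Bcl2l1 overlapped in KO M2. Pmaip1 and Bid were last, with overlapping ranges in WT M0 and KO M2. These orders depend on the gene length used: with the length of the longest transcript in place of merged exons, 4 of the 10 members kept their place in all 4 groups. On that length Bax was above Bak1 in WT M0 (54.5 against 43.5 CPM per kb) and in KO M0 (56.4 against 45.2), and below Bak1 in M2.

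**Figure D1:**
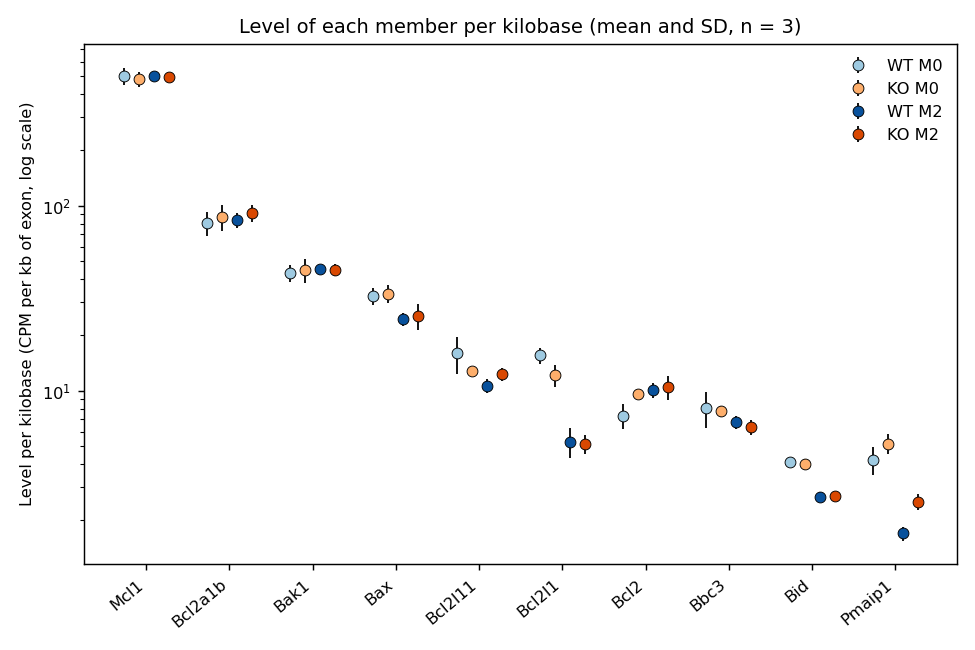
Level of each member in CPM per kilobase of merged exon on a log axis, mean (points) and SD (bars) of the 3 libraries of WT M0, KO M0, WT M2 and KO M2. Mcl1 is near 500 CPM per kb in each group and Pmaip1 lowest in M2, with 1.69 in WT M2 and 2.51 in KO M2, and the M2 points are visibly below the M0 points for Bax, Bcl2l1, Bid and Pmaip1.

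Between M0 and M2, members of all 3 roles fell. In each genotype these were 1 of 4 pro-survival genes, 1 of 2 effectors and 3 of 4 BH3-only genes. The third BH3-only gene in KO was Bbc3. Its call was lost under all 6 alternatives of test, scaling, filter and fit (adjusted p = 0.0539 to 0.141), which leaves 4 members called in KO. With a library left out the KO count was between 3 and 5. The KO call of Bax was lost in 4 of those 6 fits. A gene was called where edgeR's quasi-likelihood test gave a Benjamini-Hochberg adjusted p under 0.05. For M2 against M0 and KO against WT the change also had to be more than about 1.2-fold either way. For M2 against M0 alone, the gene also had to be protein-coding, as all 10 members are, with an average normalized count over 10. The shares below are of all genes tested, so these limits lower them. Without the limits on gene type and average count, 6137 genes were called in WT and 4842 in KO, with 6 and 5 members. In WT cells 6 of the 10 members were called, 5 lower in M2 (Bcl2l1, Pmaip1, Bid, Bcl2l11, Bax) and 1 higher (Bcl2), where 35.4% of the 14266 genes tested were called, 17.0% lower and 18.4% higher. In KO cells 5 were called, all lower (Bcl2l1, Pmaip1, Bid, Bax, Bbc3), where 28.4% of 14331 genes were called, 14.0% lower and 14.3% higher. The median log2 fold change over the 10 members was -0.32 in WT and -0.17 in KO, against -0.0012 and -0.0078 over all genes tested. In bulk RNA, fewer cells of a type and less RNA per cell cannot be told apart.

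Among the pro-survival genes, Bcl2l1 (chr2:152622582-152673655, minus strand, GRCm39, as are the gene positions that follow) had the largest difference of all members. The WT libraries measured 71.5, 86.9 and 80.7 CPM at M0 and 31.5, 21.7 and 28.6 at M2, and the KO libraries 56.7, 71.95 and 57.8 at M0 and 23.5, 26.1 and 29.8 at M2. All M2 libraries lay below all M0 libraries. The level was 2.93-fold lower in WT M2 (log2 fold change -1.55, SE 0.12, edgeR adjusted p = 1.71e-07) and 2.35-fold lower in KO M2 (log2 fold change -1.23, SE 0.12, adjusted p = 4.28e-06). Bcl2 (chr1:106465908-106642060, minus strand), the founding pro-survival gene, went the other way: 57.7, 78.0 and 66.9 CPM in WT M0 against 95.5, 83.3 and 99.2 in WT M2, with no overlap, 1.37-fold higher (adjusted p = 0.00244). In KO cells the Bcl2 ranges met, with 86.7, 88.4 and 90.2 CPM in M0 and 86.0, 91.0 and 111.8 in M2, a log2 difference of 0.12 (95% interval -0.09 to 0.34). The per-kilobase ratio of Bcl2 to Bcl2l1, looked at after these values were seen, was 0.471 ± 0.0262 in WT M0, 0.803 ± 0.103 in KO M0, 1.92 ± 0.225 in WT M2 and 2.03 ± 0.0727 in KO M2 (SD, n = 3), a description with no test.

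Mcl1 and Bcl2a1b did not pass the test in either genotype. Mcl1 (chr3:95566026-95570487, plus strand), whose protein is short-lived, measured 1944, 1558 and 1754 CPM in WT M0 against 1739, 1791 and 1741 in WT M2, and the 95% interval of its log2 difference ran from -0.16 to 0.18 in WT and from -0.14 to 0.22 in KO. Bcl2a1b (chr9:89081262-89089889, plus strand) measured 63.8, 58.4 and 76.9 CPM in WT M0 against 70.5, 74.4 and 62.3 in WT M2, and its interval ran from -0.15 to 0.28 in WT and from -0.19 to 0.33 in KO. In both genes the M0 and M2 ranges overlapped in WT.

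The effectors split. Bax (chr7:45111015-45116325, minus strand), which moves from the cytosol to the mitochondrion when activated, measured 63.7, 52.7 and 63.5 CPM in WT M0 against 45.2, 48.8 and 41.4 in WT M2, all lower, and was 1.32-fold lower (log2 fold change -0.40, edgeR adjusted p = 0.00274). In KO cells Bax measured 68.4, 54.9 and 62.8 CPM in M0 and 49.4, 53.6 and 38.6 in M2, 1.31-fold lower (adjusted p = 0.0265), a call that was lost without library 1 or 3 of KO M0 or of KO M2. Bak1 (chr17:27238784-27247983, minus strand), which sits in the mitochondrial membrane, measured 106.7, 92.3 and 112.7 CPM in WT M0 against 106.0, 111.0 and 110.7 in WT M2, a log2 difference of 0.08 (95% interval -0.09 to 0.24), and in KO 0.0045 (-0.22 to 0.23). Of the Bax exons, 10.3% are shared on the same strand with the gene model Gm45808.

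Of the BH3-only genes, Pmaip1 and Bid were called lower in both genotypes, Bcl2l11 in WT, and Bbc3 in KO with a call that other settings did not keep. The counts of Pmaip1, a partner of Mcl1 and A1, were 108, 97 and 106 at M0 and 36, 48 and 37 at M2 in WT, and 124, 132 and 161 at M0 and 50, 70 and 57 at M2 in KO, so the M0 and M2 ranges did not overlap. It was 2.45-fold lower in WT M2 (log2 fold change -1.29, SE 0.17, edgeR adjusted p = 3.59e-05) and 2.05-fold lower in KO M2 (log2 fold change -1.04, SE 0.16, adjusted p = 2e-04). Bid (chr6:120862525-120894171, minus strand), the link from caspase-8 to the mitochondrion, measured 41.1, 39.6 and 40.2 CPM in WT M0 against 28.1, 25.3 and 25.0 in WT M2, and 38.1, 42.1 and 37.4 in KO M0 and 26.2, 25.7 and 26.9 in KO M2. These 12 values formed separate M0 and M2 ranges, and Bid was 1.53-fold lower in WT (adjusted p = 3.36e-05) and 1.49-fold lower in KO (adjusted p = 0.000301).

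Bcl2l11 was called in WT and not in KO, and the difference between the genotypes was tested as an interaction. Bcl2l11 (chr2:127967958-128004476, plus strand) measured 199.3, 128.5 and 154.4 CPM in WT M0 against 105.0, 117.6 and 100.0 in WT M2, 1.48-fold lower (log2 fold change -0.57, SE 0.12, edgeR adjusted p = 0.00202). In KO it measured 124.5, 130.8 and 134.5 CPM in M0 and 134.8, 124.7 and 114.7 in M2, and the ranges overlapped (log2 difference -0.06, 95% interval -0.24 to 0.12). Bbc3 (chr7:16042318-16052130, plus strand), a p53 target, measured 43.0, 28.6 and 43.6 CPM in WT M0 against 29.6, 32.7 and 34.9 in WT M2 (log2 difference -0.24, adjusted p = 0.175), and 38.0, 34.4 and 39.1 in KO M0 and 33.1, 31.2 and 27.3 in KO M2 (log2 difference -0.28, adjusted p = 0.0474). The KO call of Bbc3 was lost in 5 of the 6 fits that left out a library (all but KO M0 library 2) and under all 6 alternatives of test, scaling, filter and fit. The WT difference of Bbc3 was called without the second WT M0 library (log2 difference -0.415, adjusted p = 0.000971), the library with the lowest Bbc3 of that group.

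**Figure D2:**
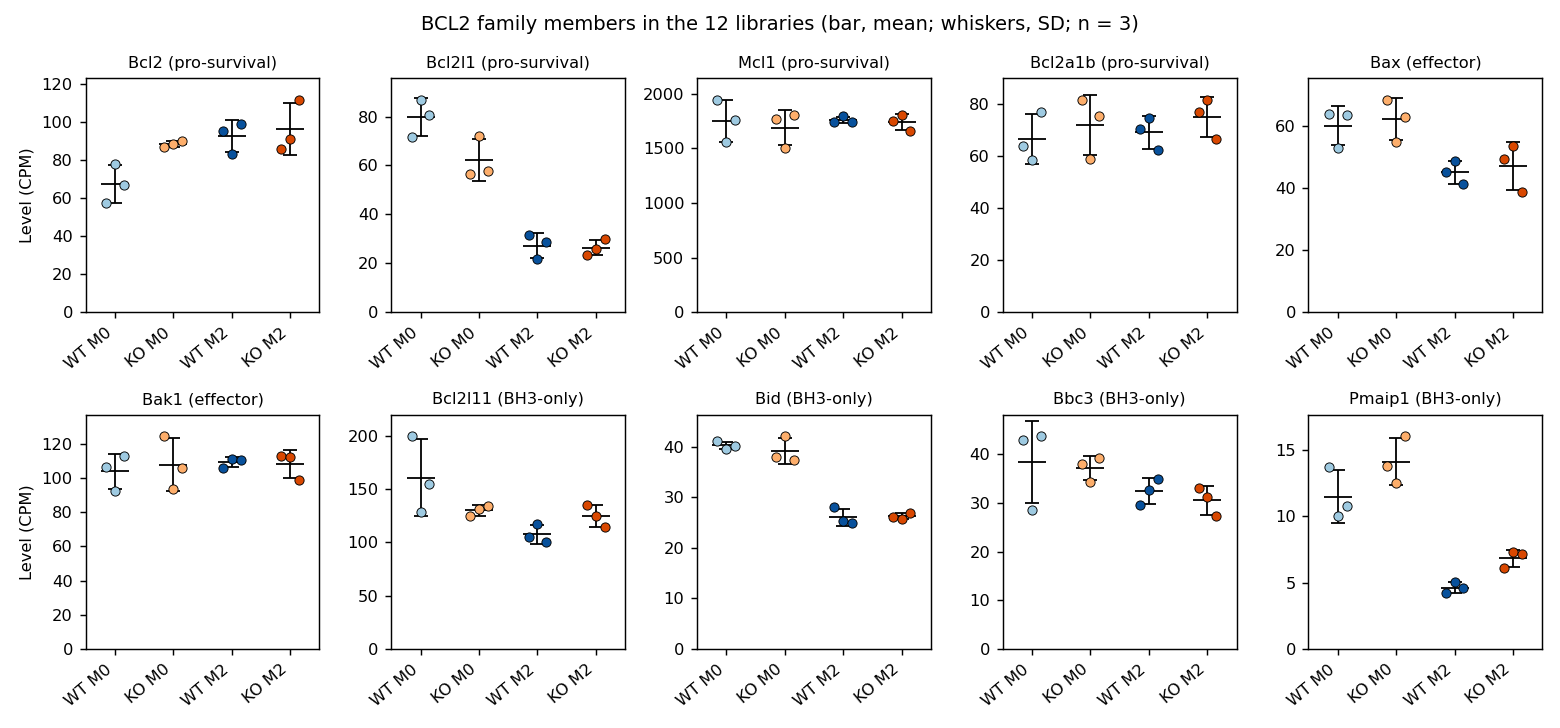
Level in CPM of the 10 members in each of the 12 libraries (points), with the mean (bar) and SD (whiskers) of each group of 3, each panel starting at 0. The M2 points of Bcl2l1, Bid and Pmaip1 lie apart from and below the M0 points in both genotypes, Mcl1 is level across groups, and Bcl2l11 is spread from 128.5 to 199.3 CPM in WT M0.

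The plot of the WT against the KO response to IL-4 places the members among all genes tested. Bid, Bax, Bbc3, Mcl1, Bak1 and Bcl2a1b lay close to the line of equal differences, and Bcl2l1, Pmaip1, Bcl2l11 and Bcl2 lay farther off it, with the smaller difference in KO. The interaction of genotype and IL-4 tests this directly. No member passed: Bcl2l11 had an interaction of 0.52 on the log2 scale (95% interval 0.16 to 0.87, unadjusted p = 0.00699, edgeR adjusted p = 0.32) and Bcl2 of -0.33 (-0.65 to -0.0069, unadjusted p = 0.0459, adjusted p = 0.55). With a library left out the Bcl2l11 interaction ran from 0.33, without library 1 of WT M0, to 0.64. Across its alternatives the adjusted p of the Bcl2l11 interaction ranged from 0.00443, without a filter on low counts, to 0.598. The other 8 members had unadjusted p-values over 0.05. At this setting 0% of the 14825 genes were called, 1327 of them (8.95%) had an unadjusted p under 0.05, DESeq2 called 74 genes, none of them a member, and with a library left out edgeR called 0 to 77, again with no member (77 without library 2 of KO M0 and 65 without library 2 of WT M0).

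**Figure D3:**
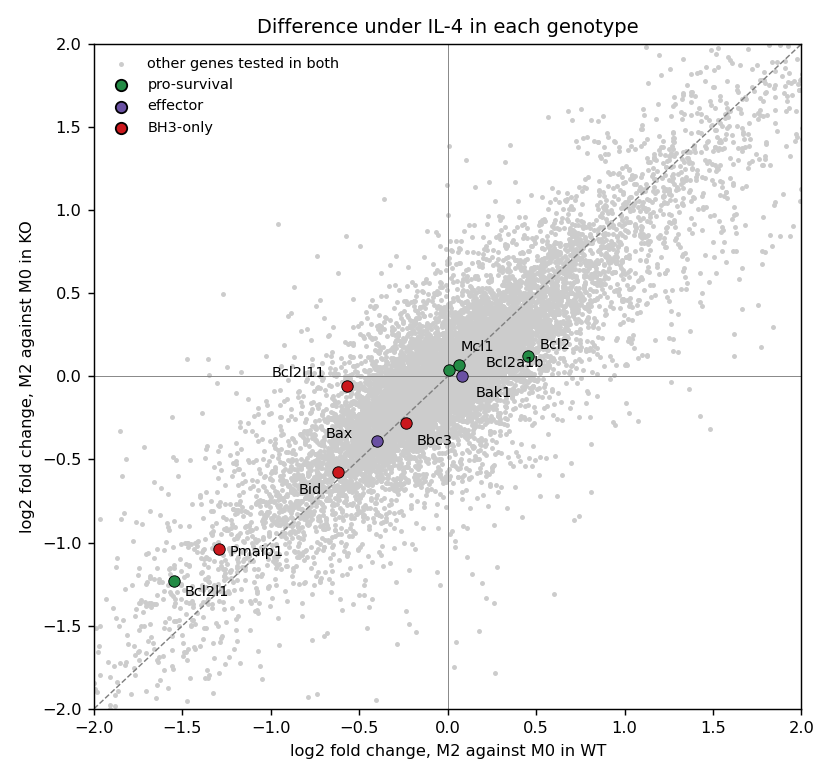
Log2 fold change of M2 against M0 in WT (x axis) and in KO (y axis) for the 14012 genes tested in both (grey, 783 of them outside the axes), with the members coloured by role and a dashed line where both are equal. Bcl2l1 and Pmaip1 sit at the lower left above the line, Mcl1, Bak1 and Bcl2a1b near the origin, and Bcl2l11 and Bcl2 between the line and a KO difference of 0.

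The comparison of KO with WT asks whether the family differs without miR-210. No member was called in M0 or in M2. In M0, 0 of 10 were called where 0.461% of 14089 genes were (65 genes by edgeR, 20 to 302 with a library left out, and 210 by DESeq2, which also called no member), and 3 had an unadjusted p under 0.05 where 10.0% of genes did. In M2, 0 of 10 were called where 0.980% of 13980 genes were (137 genes by edgeR, 53 to 215 with a library left out, and 130 by DESeq2, again with no member), and 2 had an unadjusted p under 0.05 where 10.7% of genes did. The median absolute log2 fold change of the members was 0.08 in M0 and 0.07 in M2, against 0.12 and 0.09 over all genes. Members and all genes were not matched for level, so these medians do not show that the family differs less.

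In M0 the largest differences were those of Bcl2 and of Bcl2l1. All 3 KO M0 libraries had more Bcl2 than any WT M0 library (86.7 to 90.2 against 57.7 to 78.0 CPM), a log2 difference of 0.39 (SE 0.11, unadjusted p = 0.00371, edgeR adjusted p = 0.184), and Bcl2 was the only member whose groups did not overlap, where 14.4% of all genes did not. Without the second WT M0 library the Bcl2 difference was called (0.51, adjusted p = 0.02), and with any other library left out its adjusted p was between 0.15 and 0.631. In M2 the Bcl2 groups overlapped (log2 difference 0.06, adjusted p = 0.886). Bcl2l1 was at 56.7 to 71.95 CPM in KO M0 against 71.5 to 86.9 in WT M0, a log2 difference of -0.36 (adjusted p = 0.256), with ranges that overlapped. Bcl2l11 had a log2 difference of -0.31 in M0 (adjusted p = 0.464), which was -0.12 without library 1 of WT M0. Without a filter on low counts, Bcl2 and Bcl2l1 were called in M0 (adjusted p = 0.0112 and 0.0441). Both were also called with a block for library number (edgeR adjusted p = 0.041 and 0.0304).

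In M2 the largest member difference was that of Pmaip1, with 4.24, 5.06 and 4.58 CPM in WT M2 and 6.13, 7.32 and 7.14 in KO M2. The groups did not overlap, as for 16.0% of all genes, and the log2 difference was 0.57 (95% interval 0.21 to 0.93, edgeR adjusted p = 0.163). Bcl2l11 was next, at 100.0 to 117.6 CPM in WT M2 and 114.7 to 134.8 in KO M2, a log2 difference of 0.22 (adjusted p = 0.254). For Mcl1 the 95% interval of the KO difference ran from -0.28 to 0.18 in M0 and from -0.11 to 0.09 in M2.

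**Figure D4:**
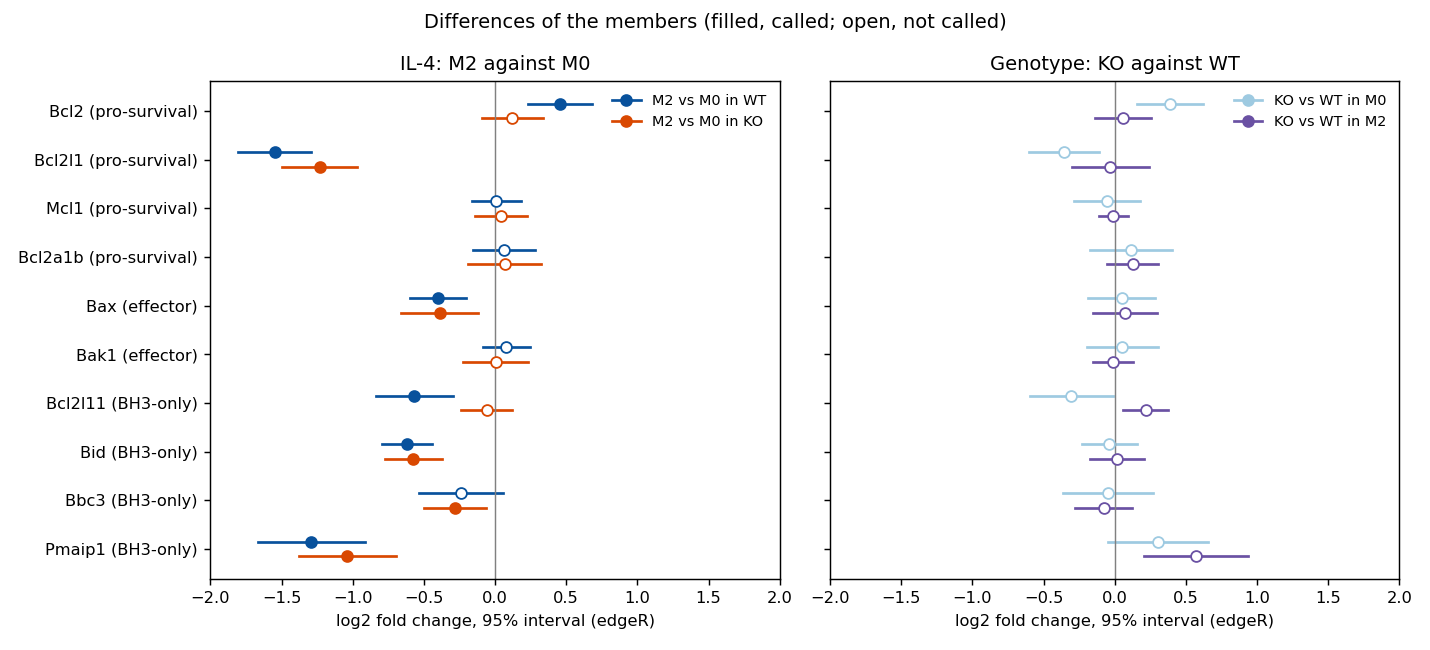
Log2 fold change with its 95% interval for each member, M2 against M0 in WT and KO (left) and KO against WT in M0 and M2 (right), filled where called and open where not. Filled points are all on the left panel, 6 in WT and 5 in KO, and the only one above 0 is Bcl2 in WT.

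Mouse has several near-identical Bcl2a1 copies, and the copy among the 10 members was not the one that differed most. The WT counts of Bcl2a1a were 24, 29 and 33 at M0 and 211, 203 and 306 at M2, 8.89-fold higher (log2 fold change 3.15, SE 0.23, edgeR adjusted p = 1.01e-07). In KO it had 63, 57 and 50 counts in M0 and 168, 181 and 168 in M2, 3.49-fold higher (log2 fold change 1.80, SE 0.15, adjusted p = 1.24e-06). The 3 KO libraries were above the 3 WT libraries in M0 (log2 difference 0.88, adjusted p = 0.134) and below them in M2 (-0.46, adjusted p = 0.268), where the groups of 14.4% of all genes in M0 and 16.0% in M2 did not overlap. Neither difference of Bcl2a1a was called, but without a filter on low counts both were (adjusted p = 0.0202 and 0.00239), and so was the M2 difference without library 2 of WT M2 (-0.63, adjusted p = 0.0446). With a block for library number the M2 difference of Bcl2a1a was also called (-0.44, edgeR adjusted p = 0.0399). Without library 3 of WT M2, the one with the highest Bcl2a1a, the M2 difference was -0.19 (adjusted p = 0.774), and the nearest KO and WT libraries in M2 stood at 21.04 and 21.39 CPM. The interaction was -1.35 (95% interval -1.997 to -0.70, adjusted p = 0.129 by edgeR, 1e-05 by edgeR without a filter on low counts and 0.0132 by DESeq2). Bcl2a1d was 1.85-fold higher in WT M2 (adjusted p = 0.00179), and in KO its log2 difference was 0.37 (adjusted p = 0.125), which ran from 0.22 to 0.51 with a library left out and was called without library 3 of KO M0 (adjusted p = 0.0489). The 3 copies summed were 1.46-fold higher in WT M2 (adjusted p = 0.000336) and 1.24-fold higher in KO M2 (adjusted p = 0.0492, lost without library 2 or 3 of KO M0 or library 1 or 2 of KO M2, at 0.143, 0.0786, 0.157 and 0.192), where Bcl2a1b alone was called in neither. The interaction of the summed copies was -0.24 (adjusted p = 0.7). Bcl2a1a made up 3.96% ± 0.364 of the counts of the 3 copies in WT M0, 6.68% ± 1.12 in KO M0, 24.0% ± 5.98 in WT M2 and 18.8% ± 2.41 in KO M2 (SD, n = 3).

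**Figure D5:**
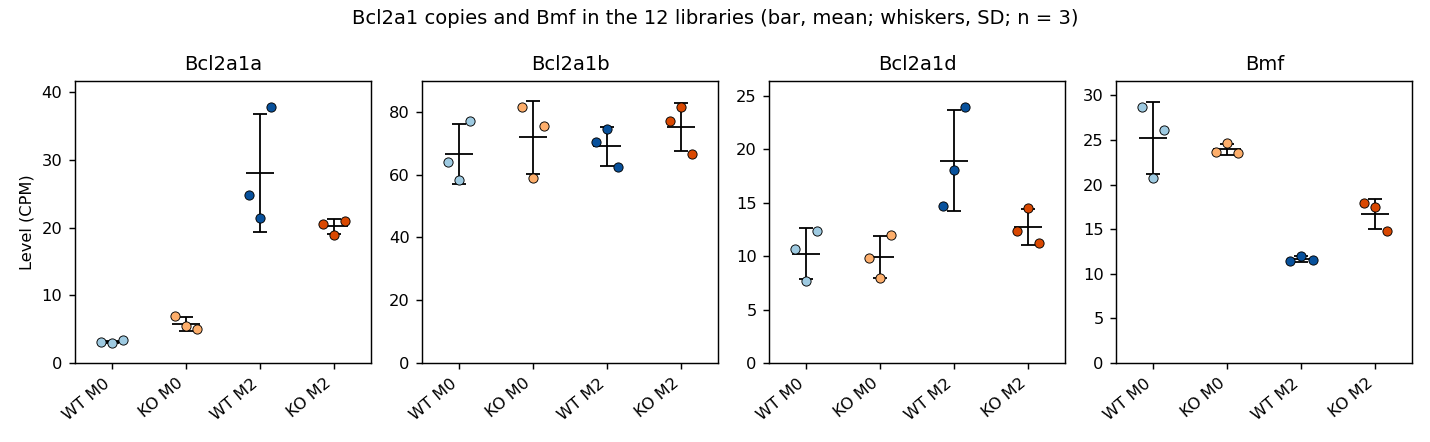
Level in CPM of Bcl2a1a, Bcl2a1b, Bcl2a1d and Bmf in each library (points), with the mean (bar) and SD (whiskers) of each group of 3, each panel starting at 0. Bcl2a1a goes from 2.996 to 3.35 CPM in WT M0 to 21.4 to 37.9 in WT M2 while Bcl2a1b stays between 58.4 and 81.6 in all groups, and the highest Bcl2a1a and Bcl2a1d values belong to the WT M2 library numbered 3.

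The copies are hard to tell apart by sequence, which bears on each count given for them. Their longest transcripts are 98.2% to 99.1% identical pairwise, and of all 50-base stretches, 78.5% in Bcl2a1b, 69.0% in Bcl2a1a and 79.5% in Bcl2a1d occur in another gene. Of the Bcl2a1b exons 48.5% are also annotated on the same strand to Gm29094, which itself had 0 to 2 counts per library. How fragments with several matches were counted is not given in the sources used here. Their start sites lie on chromosome 9. The stretches shared by the 3 RefSeq promoter windows (250 bases before to 50 after the start) are printed because these copies have nearly the same sequence there and unequal differences with IL-4. Capitals mark bases that are not the same in all 3:
Bcl2a1a: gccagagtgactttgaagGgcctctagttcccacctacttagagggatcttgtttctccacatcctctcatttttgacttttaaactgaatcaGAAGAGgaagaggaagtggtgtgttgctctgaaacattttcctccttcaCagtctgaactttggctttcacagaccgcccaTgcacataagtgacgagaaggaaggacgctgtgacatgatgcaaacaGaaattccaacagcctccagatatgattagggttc
Bcl2a1b: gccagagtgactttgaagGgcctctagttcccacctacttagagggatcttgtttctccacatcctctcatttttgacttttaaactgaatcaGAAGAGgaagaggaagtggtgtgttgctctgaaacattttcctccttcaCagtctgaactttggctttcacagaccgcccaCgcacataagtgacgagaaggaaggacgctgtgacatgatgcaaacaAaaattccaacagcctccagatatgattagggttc
Bcl2a1d: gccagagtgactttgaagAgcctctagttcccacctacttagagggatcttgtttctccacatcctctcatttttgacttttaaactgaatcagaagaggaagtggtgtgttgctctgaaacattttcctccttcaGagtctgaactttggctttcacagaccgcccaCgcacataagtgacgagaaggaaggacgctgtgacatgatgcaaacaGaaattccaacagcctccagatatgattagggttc
They lie at chr9:88838767-88839022 (plus strand), chr9:89081076-89081331 (plus strand) and chr9:88613854-88614103 (minus strand) of GRCm39. The capitals of Bcl2a1a and Bcl2a1b include a run of 6 bases that Bcl2a1d lacks, and Bcl2a1a and Bcl2a1b differ at 2 of 256 bases.

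IL-4 acts through STAT6, so promoters were searched on both strands for TTC and GAA with 4 bases of any kind between them, the spacing known for STAT6, and with 3 bases between them (TTCNNNGAA), the spacing of other STATs. The RefSeq table held 14 windows of 300 bases for 9 of the members, none for Pmaip1. The STAT6 spacing was found in 1 of the 14, a Bcl2l1 window, against 6.95% of 32851 promoters, and TTCNNNGAA in 0 of 14, against 8.30%. Neither was in the Bcl2a1a or Bcl2a1d window. The Bcl2l1 match begins at base -4 from 1 of the 3 listed start sites (chr2:152670374-152670443 of GRCm39, minus strand), with the motif in capitals:
Bcl2l1: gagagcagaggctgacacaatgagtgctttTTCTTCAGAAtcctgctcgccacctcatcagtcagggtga
The letters are a description, and no match says only that they are not in these windows.

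Of 15 other family genes, 9 passed the filter on low counts and 5 were called in each genotype with IL-4, where 35.4% of all genes tested were called in WT and 28.4% in KO. Bcl2a1a and Bnip3l were higher in M2 in both genotypes, Bcl2a1d in WT and Bcl2l13 in KO (0.45; in WT 0.23, adjusted p = 0.0354, under the fold limit, and called without library 2 of WT M0 or library 1 of WT M2), and Bmf and Bnip3 were lower in both. Bmf, a BH3-only gene, had log2 fold changes of -1.10 in WT (adjusted p = 1.04e-05) and -0.52 in KO (adjusted p = 0.00304). Its interaction of genotype and IL-4 was 0.59 and was not called (edgeR adjusted p = 0.255). Bnip3 and Bnip3l, mitophagy receptors, went opposite ways, at -0.69 and 0.89 in WT and -0.85 and 0.86 in KO. Bmf was the only family gene called between genotypes in the edgeR fits of 6 libraries with the default filter and no library-number block. Without a filter Bcl2, Bcl2l1 and Bcl2a1a were also called in M0 and Bcl2a1a and Bcl2a1d in M2 (adjusted p = 0.00239 and 0.00145). With the block Bcl2 and Bcl2l1 were also called in M0 and Bcl2a1a and Bcl2a1d in M2. Bmf measured 11.4, 12.01 and 11.5 CPM in WT M2 and 17.9, 17.5 and 14.8 in KO M2, a log2 difference of 0.53 (SE 0.12, edgeR adjusted p = 0.0441). That call was lost in 5 of the 6 fits without a library (all but KO M2 library 3) and with DESeq2 (adjusted p = 0.162), at least 10 counts in every library (0.0575) and the fit of all 12 libraries (0.127). The adjusted p over its alternatives ranged from 0.0062 to 0.221. In M0 the Bmf ranges overlapped (log2 difference -0.07). Hrk had 0 counts in all 12 libraries, and Bok had 0 in all 6 M0 libraries and 2 to 11 in M2.

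Of 19 genes for release and execution, 7 were called higher in WT M2 and 4 in KO M2, and 0 were called lower in either, where 18.4% of all genes were called higher and 17.0% lower in WT and 14.3% and 14.0% in KO. Apaf1 (-0.22, adjusted p = 0.00843) and Birc2 (-0.20, adjusted p = 0.0407) in WT and Vdac1 (0.23, adjusted p = 0.037) in KO, named after their values were seen, passed the p threshold and not the fold limit. The median log2 fold change of the list was 0.09 in WT and 0.05 in KO. Casp6, an executioner caspase, rose in both (log2 fold change 1.38 in WT, adjusted p = 1.30e-07, and 1.58 in KO, adjusted p = 4.78e-07), as did Casp9, the initiator caspase of the apoptosome (0.75 and 0.70) and Vdac2, the channel that holds Bak1 (0.56 and 0.34). Birc5, which encodes survivin, a caspase inhibitor that also serves cell division, was called in WT (1.11, adjusted p = 0.00192), and in KO it was at 0.52 (adjusted p = 0.119), with a range of 0.29 to 0.76 with a library left out and a call without library 1 of KO M0. Endog and Diablo, proteins released from mitochondria, were called in WT by edgeR (0.47 and 0.37), not by DESeq2, nor without library 1 or 2 of WT M2. The KO call of Vdac2 was lost without library 2 of KO M0 or of KO M2.

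On the death receptor side, 9 genes were tested, and the counts of this list and the next stand beside the same shares of all genes. In WT M2, Tnfrsf10b, the mouse TRAIL receptor (1.67, adjusted p = 2.28e-05), and Traf2 were higher, and Cflar, which encodes the caspase-8 inhibitor FLIP (-0.51), Tnfrsf1a, a TNF receptor (-0.32), and Casp8 (-0.28) were lower. In KO M2, Tnfrsf10b was higher (1.46) and Cflar (-0.49) and Tnfrsf1a (-0.43) lower. The WT call of Casp8 was lost without library 1 of WT M0, without library 1 or 3 of WT M2 and without a filter on low counts. In KO Casp8 was at -0.23 (adjusted p = 0.0455), under the fold limit, and was called without library 2 of KO M0 or of KO M2. Among 8 genes for the turnover and placing of family proteins, the same 3 were higher in both genotypes: Bag3, a co-chaperone that binds Bcl2 (1.438 in WT and 1.20 in KO), Ywhaz, a 14-3-3 protein that holds Bad (0.47 and 0.35), and Btrc, part of a ubiquitin ligase (0.35 and 0.36, the KO call lost without library 1 of KO M0 or library 1 or 3 of KO M2). Between genotypes, 0 genes of these 3 lists were called in M0 or M2 by edgeR, where 0.461% and 0.980% of all genes were, and 1 of the 36 had an unadjusted p under 0.05 in each state, where 10.0% and 10.7% of all genes had.

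Markers of other cells were low, with 1 exception. T cell markers (Cd3e, Cd3d, Trac) summed to at most 0.254 CPM, fibroblast markers (Col1a1, Col1a2, Dcn) to at most 1.89 and the 8 neutrophil markers to at most 5.16, with S100a8 the most abundant and Ly6g at 0 throughout. The 3 erythroid markers were at 0 in all KO libraries and in 2 of the WT libraries, and reached 3.69 CPM in WT M2. The 3 dendritic cell markers (Flt3, Zbtb46, Xcr1) summed to 0.310, 0.509 and 0.609 CPM in WT M0 and 0.498, 0.891 and 0.952 in KO M0, but to 11.6, 16.03 and 17.95 in WT M2 and 10.15, 11.02 and 13.1 in KO M2. In M2 nearly all of that sum was Zbtb46, between 9.52 and 17.7 CPM, and Flt3 was at 0 in all M2 libraries. The part of this difference in the M2 values of the family was not tested.

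The genes that ran most like the leading member of each role over the 12 libraries were named by Pearson r of log2 CPM among 14824 genes. For Mcl1 they were Ier5 and Maf1 (both 0.925) and Dnase1l1 (0.917), for Bak1 Rad23b (0.957), Tmem167 (0.947) and Phb2 (0.928), and for Bcl2l11 Fcgr4 (0.915), Gvin1 (0.913) and Trav13-4-dv7 (0.91). The 12 points share the culture series and the library scaling, and these values are a description.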

How the data were processed

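Total RNA was depleted of rRNA and sequenced as stranded pairs. Per the study's methods and the submitters' processing notes, the authors trimmed reads with Trimmomatic, removed duplicates with Picard, aligned with STAR to GRCm39 and made whole-number read counts per gene with featureCounts, deposited as raw counts in 4 tables. The authors' normalized values, 4 deposited tables read here as signal, are those counts scaled by 1 constant per library, and served only to check levels. Counts were analysed with edgeR 4.0.16 (TMM, default low-count filter, quasi-likelihood test, Benjamini-Hochberg) in R 4.3.3, each comparison with its own 6 libraries and the interaction with all 12. Alternatives were DESeq2 1.42.0, RLE scaling, no filter, at least 10 counts in every library, a library-number block, a fit of all 12 libraries, and leaving out each library. Named genes were all members, Mir210 and called genes of the lists. Members and lists were chosen with earlier results of these data known. CPM used TMM-scaled totals. The analysis scripts were tested on simulated data. A few genes of the lists and marker sets are not reported here.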

Additional observations from a re-analysis of the deposited data

Results flagged for a closer look

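Bcl2a1a, one of the near-identical A1 copies, had KO and WT values on opposite sides in the 2 states: all 3 KO libraries were above all 3 WT libraries in M0 (log2 difference 0.88, edgeR adjusted p = 0.134) and all 3 were below in M2 (-0.46, adjusted p = 0.268), where the groups of 14.4% and 16.0% of all genes did not overlap. The difference of the 2 differences was tested as the interaction and was -1.35 on the log2 scale (adjusted p = 0.129 by edgeR, 0.0132 by DESeq2, 1e-05 by edgeR without a filter on low counts, and between 0.0676 and 0.333 by edgeR with a library left out). Neither state was called on its own with the default filter, all libraries and no library-number block. With the block the M2 difference was called (-0.44, edgeR adjusted p = 0.0399). Without a filter both states were called (adjusted p = 0.0202 in M0 and 0.00239 in M2). The M2 difference was also called without library 2 of WT M2 (-0.63, adjusted p = 0.0446), while without library 3 of WT M2 it was -0.19 (adjusted p = 0.774). The nearest KO and WT values in M2 were 21.04 and 21.39 CPM.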

How the results depend on the processing

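The 6 WT calls with IL-4 kept their direction and their call under DESeq2, another scaling, the filters, the library-number block and the 12-library fit, and with each library left out. In KO against WT at M0, 0 members were called, against 2 (Bcl2 and Bcl2l1) without a filter on low counts and 2 with the replicate block, where Bcl2 had an adjusted p of 0.041 and Bcl2l1 of 0.0304, and between 0 and 1 with a library left out (1 without WT M0 library 2). With a log2 fold limit of 1, 2 members were called in WT M2 against M0 and 2 in KO, and with a library left out the KO count was between 3 and 5. The KO count of 5 was 4, without Bbc3, under DESeq2, RLE scaling, no filter, at least 10 counts in every library, the block and the 12-library fit. For the interaction, 1 member (Bcl2l11) was called without a filter on low counts. Genes called in KO against WT numbered 65 in M0, against 210 by DESeq2, 532 without a filter, 284 with the block, 248 in the 12-library fit and 27 past a log2 limit of 1, and 137 in M2, against 360 without a filter, 289 with the block, 60 in the 12-library fit and 40 past the limit of 1. With a library left out these counts ran from 20 to 302 in M0 (302 without WT M0 library 2) and from 53 to 215 in M2 (215 without KO M2 library 3). The limit of 1 left 1446 genes called in WT and 1292 in KO with IL-4, and the interaction had 0, 74 by DESeq2, 341 without a filter and 0 to 77 with a library left out (77 without KO M0 library 2, 65 without WT M0 library 2). The cause was not tested.

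Replicate numbers were shared between groups, but the correlations of same-numbered libraries ran from -0.333 to 0.402 over all comparisons, so the numbers were not taken as pairs. In KO against WT at M0 the correlations were 0.129, 0.402 and 0.028 for numbers 1, 2 and 3. There the same number was the best match for 1 and 2, and a pairing in that comparison was not tested. The -0.333 belongs to M2 against M0 in KO. With the block, Bcl2a1a and Bcl2a1d were called in KO against WT at M2 (-0.44 and -0.55, adjusted p = 0.0399 and 0.0367).

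In place of the summed Bcl2a1 copies, Bcl2a1b alone gave log2 differences of 0.1261 in KO against WT at M2 (summed, -0.10), 0.0632 in WT with IL-4, 0.0669 in KO with IL-4 and 0.0099 for the interaction. Adding Gm29094 to the sum gave 0.3036 in KO with IL-4 (adjusted p = 0.0507), and leaving out a library gave 0.1763 to 0.3922 there. Using the longest transcript as gene length kept the place of 4 members. Without a filter, Bak1 in KO with IL-4 was at -0.0032 and the Bcl2a1b interaction at -0.0021, both opposite in sign and neither called. With a library left out, differences that were not called changed sign. For the M0 genotype comparison these ranges were -0.1194 to 0.0293 for Mcl1, -0.211 to 0.0627 for Bbc3, -0.1828 to 0.0299 for Bmf, -0.0273 to 0.1332 for Bax, -0.0588 to 0.1513 for Bak1 and -0.2128 to 0.1235 for Bcl2a1d. For the M2 genotype comparison these ranges were -0.1837 to 0.0882 for Bcl2l1, -0.0579 to 0.1348 for Bcl2, -0.0138 to 0.0715 for Bid, -0.0428 to 0.0485 for Bak1, -0.033 to 0.1939 for Bax and -0.0396 to 0.0206 for Mcl1. For WT M2 against M0 these ranges were -0.0681 to 0.0886 for Mcl1, -0.0253 to 0.1803 for Bcl2a1b and -0.0014 to 0.1369 for Bak1. For KO M2 against M0 these ranges were -0.0423 to 0.0742 for Mcl1, -0.0658 to 0.1627 for Bcl2a1b, -0.097 to 0.1156 for Bak1, -0.0256 to 0.127 for Diablo and -0.0106 to 0.1978 for Bcl2. For the interaction these ranges were -0.0514 to 0.1022 for Mcl1, -0.0864 to 0.1357 for Bax, -0.1478 to 0.1256 for Bbc3, -0.1221 to 0.1062 for Bcl2a1b and -0.1685 to 0.0435 for Bak1. With 7930525 to 10167695 counts per library, Pmaip1, Bcl2a1a and Mir210 rest on few counts.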
